A study of Arabidopsis thaliana with 8 samples.

Results

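The mitochondrial genes rps4 and rps7 encode proteins S4 and S7 of the small subunit of the mitochondrial ribosome. They were taken by gene name, as 2 of the 33 genes with ribosome footprint values and as the genes of 18 of the 434 listed RNA editing sites. Of these sites, 15 lie in rps4 and 3 in rps7. The genes rps3, rps12, rpl2, rpl5 and rpl16, the 5 other ribosomal protein genes of the footprint table, served as their comparison.

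The material was Arabidopsis thaliana flowers of the Col-0 background, in 8 libraries. Ribosomes shield the stretch of mRNA they sit on from nuclease, and sequencing these footprints (Ribo-seq) shows where mRNAs are occupied. Ribo-seq covered the wild type and the mutants mtl1 and mtsf1, each as library A and library B. The labels call both lines mutants of a pentatricopeptide repeat (PPR) gene, tied to nad7 mRNA translation for mtl1 and to nad4 mRNA stability for mtsf1, and name no allele. PPR proteins bind organellar RNA. RNA-seq of total RNA, made to measure editing, is available for 2 wild type libraries (A and B). Plants were grown for 10 to 12 weeks under long days, and the flowers of all genotypes were harvested together.

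Ribo-seq values are the authors' normalized counts, scaled in a way that no source used here states, and their totals of 216316 to 290301 per library are not sequencing depths. The lowest totals were the 2 mtsf1 libraries. The labelled lesions were visible in the table. In mtl1, nad7 had 460 and 394 normalized counts, against 8132 and 6785 in the wild type. In mtsf1, nad4 had 216 and 207, against 13818 and 11147. The genes MTL1 and MTSF1 are nuclear and have no row, and none of the 33 genes marks a floral tissue, so the tissue label was not checked. No RNA-seq of either mutant was used here. A difference in footprints therefore cannot be divided between mRNA amount and translation, and in these bulk samples fewer cells of a type and less RNA per cell cannot be told apart.

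Plant mitochondria make a small set of their own proteins, mostly subunits of the respiratory chain, on ribosomes whose proteins are encoded partly in the organelle and partly in the nucleus. In Escherichia coli, S4 and S7 are primary binders of the small subunit rRNA, S4 starting assembly of the body and S7 that of the head. In plant mitochondria many mRNA cytidines are deaminated to uridine (C-to-U editing), at positions recognised by PPR proteins that bind just upstream, and most edits in coding sequence change the encoded amino acid.

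On the mitochondrial chromosome of the TAIR10.1 assembly (MT, 367808 bp), the rps4 coding sequence runs on the plus strand from MT 159980 to 161068. It has 1089 bases and encodes 362 residues. The first coding segment of nad2 on the same strand begins 763 bases after its end. The rps7 coding sequence runs on the plus strand from MT 79559 to 80005, with 447 bases for 148 residues. No source used here names the authors' build. Each site sequence of both genes matched this assembly at 1 place, with every T of the sequence allowed to read as C or T.

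The sites below carry the editing results. They are the rps4 sites read at least 20 times in each RNA-seq library (106, 117, 406 and 1021), the rps4 codon edited at 2 of its bases (1071 and 1072), the rps4 site with the lowest level in a library (255), and every listed rps7 site. Numbers are transcript positions, the deposited sequence is given 5′ to 3′ with the site in capitals, and most deposited sequences already hold T, the edited base.
rps4 106: tcaaacttgtcgtctactttTaggaa
rps4 117: gtctacttttaggaaatgttTggaac
rps4 255: tacaaactacacgaaagttgTccctt
rps4 406: tattcctcaagcaaggcagcTgataa
rps4 1021: aacaccaaaagctgtggtatTttatg
rps4 1071: acgacataagattaaaagatTtaaac
rps4 1072: cgacataagattaaaagattTaaacc
rps7 231: gaagaggtataaaatgattcCggggc
rps7 242: aaatgattccggggcggagcTatatg
rps7 779: gataagcttagagaaatgttTatttg
The windows of 106 and 117 overlap, as do those of 1071 and 1072, and those of 231 and 242, so their reads are not independent.

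The first comparison asks how densely ribosomes covered the 2 genes in the wild type. In Col-0, rps4 had 1504 (A) and 1666 (B) normalized counts, a mean of 1585 ± 115 (SD, n = 2), and rps7 had 568 and 459, a mean of 513.5 ± 77.1. The Col-0 libraries differed by 0.15 log2 units for rps4 and by 0.31 for rps7, beside a median of 0.31 over all genes. Per kilobase (kb) of coding length, which allows levels of different genes to be compared, the genes were close. rps4 reached 1455 ± 105 and rps7 1149 ± 172 normalized counts per kb. The ratio of rps4 to rps7 per kb was 1.09 in library A and 1.49 in library B, so rps4 was the higher in both.

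Per kb, rps12 stood highest of the 7 ribosomal protein genes in Col-0 (2022 ± 301), followed by rpl5 (1667 ± 279), rps4 and rps7. rps4 and rpl5 exchanged places between the libraries, so these neighbours did not differ beyond their spread. The genes below rps7 were rpl16 (627 ± 114), rps3 (571 ± 110) and rpl2 (483 ± 171), all below both rps7 libraries. Among the 31 genes of the table with an annotated coding length, rps4 ranked from 19 to 21 and rps7 from 20 to 21 over the 6 libraries, both in the lower part of the table.

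**Figure D1:**
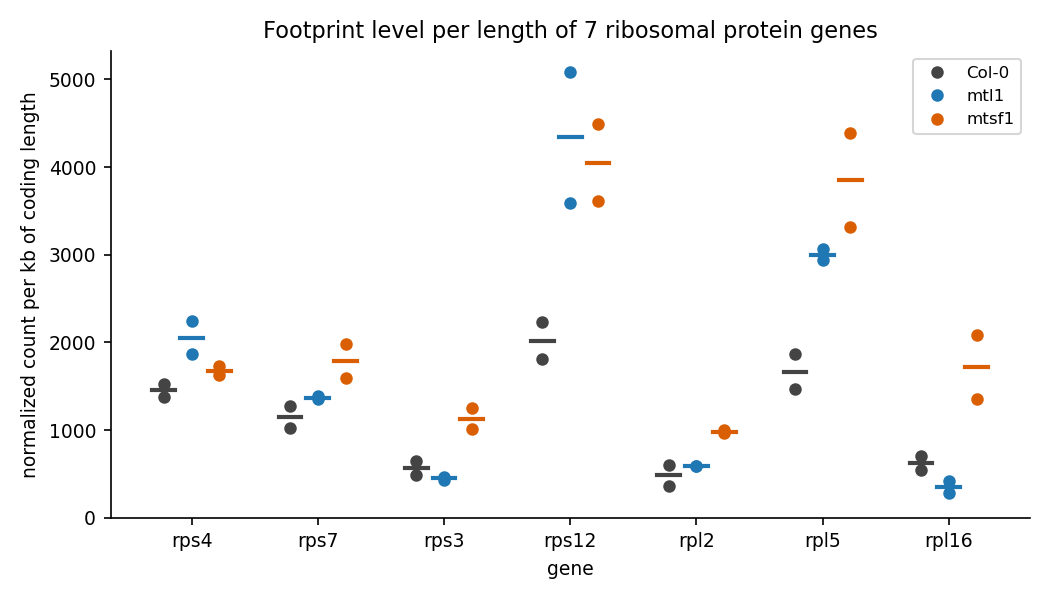
Normalized footprint count per kb of coding length (y axis) of 7 ribosomal protein genes (x axis), with points for the 2 libraries of each genotype and a bar at their mean. In Col-0 rps4 (1455) and rps7 (1149) lie below rps12 (2022) and rpl5 (1667), and in mtsf1 rps7 (1790) lies just above rps4 (1679).

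In mtl1, rps4 had 2446 (A) and 2033 (B) normalized counts, a mean of 2239.5 ± 292 (SD, n = 2). Both libraries were above both Col-0 libraries. The log2 fold change was 0.49 (SE 0.23, 95% interval 0.03 to 0.96, 1.41-fold) and missed the threshold of 0.05 (adjusted p = 0.0872, limma with Benjamini-Hochberg adjustment over the 33 genes). In that fit 11 of 33 genes passed, 33.3% of them, with 5 higher and 6 lower, and rps4 had the 6th highest fold change. limma gave every gene 1 common variance, so all SEs in this contrast are equal. When libraries were scaled to equal totals, rps4 passed in mtl1 (0.59, adjusted p = 0.0257 by limma), with the median of all genes moving from -0.13 to -0.03.

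rps7 had 604 and 620 normalized counts in mtl1, a mean of 612 ± 11.3 (SD, n = 2), and both were above both Col-0 libraries. Its log2 fold change of 0.26 (95% interval -0.20 to 0.72) did not pass the threshold (limma adjusted p = 0.345), and the interval leaves room for a rise of up to 1.65-fold. The 2 mtl1 libraries lay 0.04 log2 units apart for rps7 and 0.27 apart for rps4, beside a median of 0.20 over all genes. Of the 7 ribosomal protein genes, rps4, rps7, rps12 and rpl5 were higher in both mtl1 libraries than in both Col-0 libraries (4 of 7), against 30.3% of all 33 genes.

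The 5 other ribosomal protein genes changed in both directions in mtl1. rps12 rose (log2 fold change 1.09, limma adjusted p = 8.5e-05), as did rpl5 (0.86, limma adjusted p = 0.0026), which encodes a large subunit protein that binds 5S rRNA in bacteria. rpl16 fell by 0.85 (limma adjusted p = 0.0026). rps3 (-0.33) and rpl2 (0.34) did not pass. rps3 and rpl16 overlap on the chromosome, so counting may have shared or lost their reads. The median log2 fold change of the 5 was 0.34, between the value of rps4 and that of rps7, beside -0.13 over all genes.

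In mtsf1, rps7 rose. It had 885 (A) and 715 (B) normalized counts, a mean of 800 ± 120 (SD, n = 2), above both Col-0 libraries. The log2 fold change was 0.64 (SE 0.23), a 1.56-fold rise with a 95% interval of 1.13 to 2.15 (limma adjusted p = 0.0154). In this contrast 16 of 33 genes passed, 48.5%, with 9 higher and 7 lower, and rps7 was the lowest in fold change of the 9 that rose. The call was lost without Col-0 library B (0.49, limma adjusted p = 0.164), without mtsf1 library A (0.48, limma adjusted p = 0.158) and when each gene kept its own variance (limma adjusted p = 0.0901).

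rps4 had 1886 and 1771 normalized counts in mtsf1, a mean of 1828.5 ± 81.3 (SD, n = 2). Both libraries were above both Col-0 libraries, though by less than in mtl1. The log2 fold change of 0.21 (95% interval -0.26 to 0.67) did not pass (limma adjusted p = 0.461), and rps4 ranked 14 of 33. With equal totals, which raised the median of all genes from 0.03 to 0.36 and gave 14 higher and 7 lower genes, rps4 passed with 0.54 (limma adjusted p = 0.0236). The scaling thus decided the call of rps4, and the smaller totals of mtsf1 move with it. Their part in the result was not tested.

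All 5 other ribosomal protein genes rose in mtsf1, so that 6 of the 7 passed, and rps4 was the exception. Their log2 fold changes ran from 0.99 for rps3 to 1.43 for rpl16, each above that of rps7. All 7 were higher in both mtsf1 libraries than in both Col-0 libraries, against 36.4% of all genes. The median of the 5 was 1.07, beside 0.03 over all genes. In contrast, nad2, whose first coding segment follows rps4 on its strand, fell from 9486 and 9988 normalized counts to 3531 and 2833 in mtsf1 (log2 fold change -1.62, limma adjusted p = 4.6e-09). These values are of the whole gene, and the segment near rps4 has no value of its own.

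**Figure D2:**
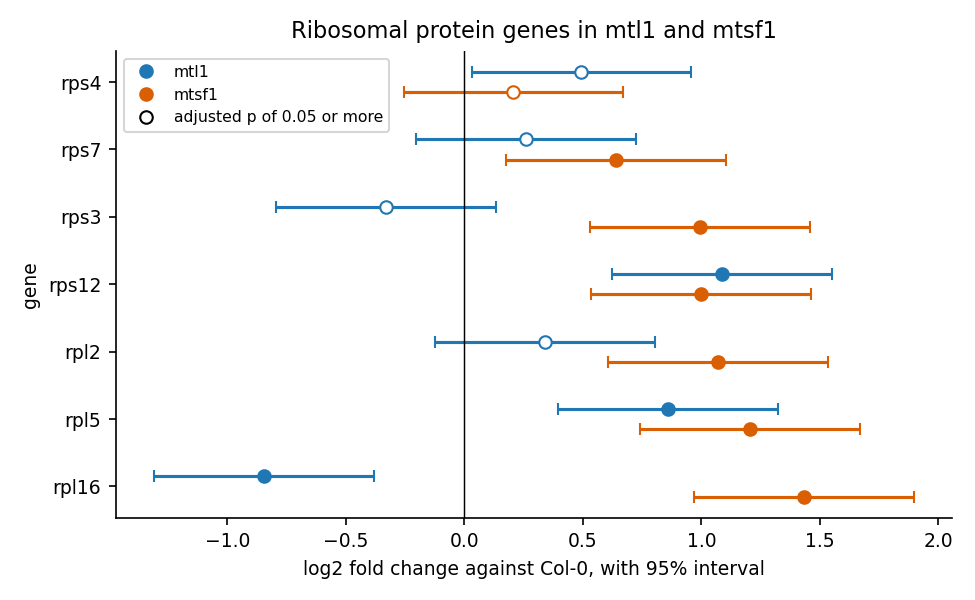
Log2 fold change against Col-0 (x axis) of 7 ribosomal protein genes (y axis) in mtl1 and mtsf1, with 95% intervals from limma, where filled points passed an adjusted p of 0.05. rps7 in mtsf1 is filled at 0.64, while rps4 is open in both mutants at 0.49 and 0.21.

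Both contrasts share the Col-0 libraries, so their values are only set side by side, 0.49 and 0.21 for rps4 and 0.26 and 0.64 for rps7. The direct comparison of mtl1 with mtsf1 tests the difference. rps4 was higher in mtl1 by 0.29 (95% interval -0.18 to 0.75), which did not pass (limma adjusted p = 0.367). rps7 was at -0.38 (95% interval -0.84 to 0.09), which did not pass either (limma adjusted p = 0.277). In this comparison 8 of 33 genes passed, 24.2%. With equal totals rps7 was lower in mtl1 than in mtsf1 (-0.62, limma adjusted p = 0.0188), and rps4 was at 0.05, with 3 genes higher and 10 lower against 3 and 5 before.

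For rps4, both mtl1 libraries were above both mtsf1 libraries, as they were for 33.3% of all genes, and no other of the 7 ribosomal protein genes showed this. Of the 7, 5 including rps7 were lower in both mtl1 libraries than in both mtsf1 libraries, as were 33.3% of all genes. Of the 5 comparison genes, rpl16 (-2.28), rps3 (-1.33) and rpl2 (-0.73) were lower in mtl1 than in mtsf1 at a limma adjusted p of at most 0.0096.

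The ratio of rps4 to rps7 shows how the 2 small subunit genes stood to each other. Per kb it was 1.66 and 1.35 in mtl1 and 0.875 and 1.02 in mtsf1, beside the 1.09 and 1.49 of Col-0. The mtsf1 ratios were below all 4 others, and those of Col-0 and mtl1 overlapped. The margin was small, as 1.02 in mtsf1 B lay closer to 1.09 in Col-0 A than the Col-0 libraries lay to each other. The share of other gene pairs with such an order was not computed. rps7 kept 4th place of the 7 genes per kb in all 6 libraries, whereas rps4 was 2nd or 3rd in Col-0, 3rd in mtl1 and 5th or 3rd in mtsf1.

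Within each library the 2 genes were also set against the median of the 5 others, on the log2 scale of counts without correction for length, so that the height above or below it also holds the genes' lengths. That median was 845 (A) and 684 (B) normalized counts in the wild type. It was 716 (A) and 787 (B) for mtl1 and 1365 (A) and 1695 (B) for mtsf1. rps4 exceeded it by 0.83 and 1.28 log2 units in the wild type, 1.77 and 1.37 in mtl1, and 0.47 and 0.06 in mtsf1. The 3 genotypes did not overlap, with mtl1 highest and mtsf1 lowest.

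Without correction for length rps7 was below the median in every library, at -0.57 and -0.57 in the wild type, -0.25 and -0.34 in mtl1, and -0.62 and -1.24 in mtsf1. The order of the genotypes was that of rps4.

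Per kb the position of rps7 turned. It was above the median of the 5 in 5 of the 6 libraries, with 0.84 and 0.91 log2 units for the wild type, 1.20 and 1.22 for mtl1, and -0.07 and 0.24 for mtsf1. rps4 per kb stood at 0.96 and 1.48 for the wild type, 1.93 and 1.65 for mtl1, and -0.27 and 0.26 for mtsf1. The order of the genotypes, with mtl1 highest and mtsf1 lowest and no overlap, was the same on both scales for both genes. A gene's length is the same in every library, so only the median can change this order, and the scales are not independent. Per kb, however, the median was the value of rpl16 in every wild type and mtsf1 library and that of rpl2 in mtl1. The order therefore also depends on which gene is the median. Neither the share of all genes with this order nor a median without rps3 and rpl16 was computed per kb.

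On the scale without length correction, in mtl1 the difference changed by 0.51 for rps4 and 0.28 for rps7, without overlap in either, against 28.6% of the 28 remaining genes whose difference was likewise higher in both mtl1 libraries. In mtsf1 it changed by -0.79 and -0.36, and 89.3% of genes were lower in both mtsf1 libraries. Between mtl1 and mtsf1 the gap was 1.30 and 0.64, and 92.9% of genes were higher in both mtl1 libraries. The shares near 90% follow a median that was itself higher in mtsf1, and the members do not stand apart from them.

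Each of these differences had an exact two-sided permutation p of 0.333, the smallest that 2 libraries against 2 allow. Single libraries moved several of them. The rps4 change in mtl1 was 0.29 when Col-0 A was left out and 0.31 when mtl1 A was, and the rps7 change in mtsf1 was -0.05 without mtsf1 B and -0.67 without mtsf1 A. The rps7 gap between the mutants was 0.33 without mtsf1 B. The direction of the mtl1 change rested on the overlapping pair rps3 and rpl16. Without these genes in the median it turned to -0.51 for rps4 and -0.74 for rps7, and the gap between mtl1 and mtsf1 became 0.28 and -0.38.

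**Figure D3:**
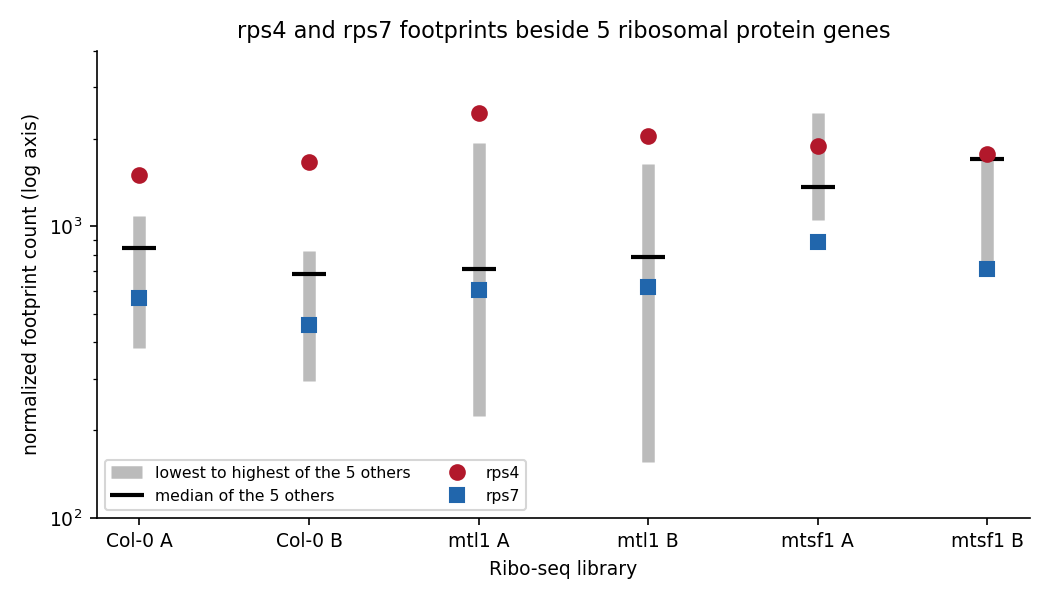
Normalized footprint counts, not corrected for length (y axis, log scale), of rps4 and rps7 in 6 Ribo-seq libraries (x axis), with a grey bar from the lowest to the highest of 5 other ribosomal protein genes and a line at their median. On this scale, which also holds the genes' lengths, the median of the 5 is highest in mtsf1, at 1365 and 1695, and rps4 is highest in mtl1, at 2446 and 2033.

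The genes with the most similar profile over the 6 libraries, by root mean square difference of log2 values after subtracting each gene's mean, were atp1 (0.15), nad5 (0.20) and cob (0.22) for rps4, beside a median of 0.43 over the other genes. For rps7 they were ccmB (0.16), ccmFC (0.17) and ccmFN1 (0.20), beside a median of 0.41. These encode respiratory chain or ATP synthase subunits in the case of rps4 and cytochrome c maturation factors in that of rps7. rps4 and rps7 differed from each other by 0.32, which placed rps7 10th for rps4 and rps4 9th for rps7. atp1, for example, stood at 52513 and 49869 normalized counts in mtl1, above the 40246 and 38577 of the wild type and the 36851 and 43842 of mtsf1, so it was also highest in mtl1.

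RNA editing was measured in the 2 Col-0 RNA-seq libraries as the share of T among T and C reads at each listed site, and set beside the reference level in the same tables, whose origin no source used here states. The 4 rps4 sites read at least 20 times in each library were nearly completely edited, a state common in this series. These rps4 sites averaged 98.9% ± 0.298 (SD, n = 2 libraries), against a mean reference of 79.75%. Over all 226 sites with this depth the median level was 99.9%, and the mean was 89.0% in A and 89.1% in B. Of the 15 rps4 sites 4 had this depth, against 226 of the 434 listed sites, and the median rps4 site was read less than the median site of the series.

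At rps4 106, which changes serine to leucine (S26L), 36 of 36 reads in A and 70 of 72 in B were edited, or 100% (Wilson 95% interval 90.4 to 100) and 97.2% (90.4 to 99.2), against a reference of 77%. At 117 (R30W) the reads were 126 of 126 and 353 of 357, or 100% (97.0 to 100) and 98.9% (97.2 to 99.6), against 75%. Both were above the reference in both libraries. At 1021 (S331F) they were 26 of 27 and 66 of 67, or 96.3% (81.7 to 99.3) and 98.5% (92.0 to 99.7), against 81%, so this site was above as well. At 406 (P126L) all 20 and all 46 reads were edited, but with 20 reads in A the lower bound of 83.9% did not exceed the reference of 86%.

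Thus 3 of the 4 sites lay above the reference in both libraries, beyond the intervals, as did 23.5% of the 226 sites of the series. The reference of these rps4 sites is low, so sites of other genes with a reference in the range of the rps4 sites, 60 to 87%, give a closer comparison. Of 28 such sites in 9 genes, 20 were above and 1 below, with a median excess of 14.9 percentage points. The excess at the 4 rps4 sites was 14.0 to 24.4 percentage points, with a median of 19.0. Of the 5 comparison genes, 13 of 40 sites had enough reads, and 7 were above.

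The remaining 11 rps4 sites were read 0 to 16 times in A and 1 to 28 times in B. Summed over these sites, 61 of 64 base observations were edited in A, 95.3%, and 100 of 103 in B, 97.1%. The adjacent sites 1071 and 1072 supplied 16 and 15 of them in A and 20 and 19 in B. Such neighbours share reads, so no interval is given for the sums. The thinly read sites were therefore also mostly edited. The codon with 2 listed edits, which turns proline into leucine (P348L), had 15 of 16 and 19 of 20 edited reads at 1071 (reference 70%) and 14 of 15 and 19 of 19 at 1072 (reference 60%), both above the reference in both libraries. The lowest value was at 255 (P76S), with 2 of 3 edited reads in A and 3 of 3 in B, an estimate too coarse to differ from the reference of 81%.

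Summed over all rps4 sites, 269 of 273 base observations in A and 635 of 645 in B were edited, 98.5% and 98.4%. The reference levels with the same reads would give 75.9% and 76.4%. Site 117 alone supplied 126 of these observations in A and 357 in B, so the sums mostly follow the best-read sites. Intervals cover counting error only, and reads from PCR copies are not independent.

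All 15 rps4 sites lie in the coding sequence and at codon positions 1 (6 sites) or 2 (9 sites). RefSeq annotates an amino acid change for each, but 1071 and 1072 fall in 1 codon (CCA) and share the change P348L. The edit at 1072 alone gives CTA, which already encodes leucine, so after it the edit at 1071, to TTA, is silent. With this codon counted at both sites, the change is to leucine at 9 sites. On the same count, the original residue is proline at 8 and serine at 4. The base before the site was T at 9, C at 5, G at 1 and A at 0. All 15 are annotated as edited in RefSeq, which annotates 23 positions in rps4, and the other 8 were not listed here. Of those 8, 6 are annotated as edited at minor frequency.

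**Figure D4:**
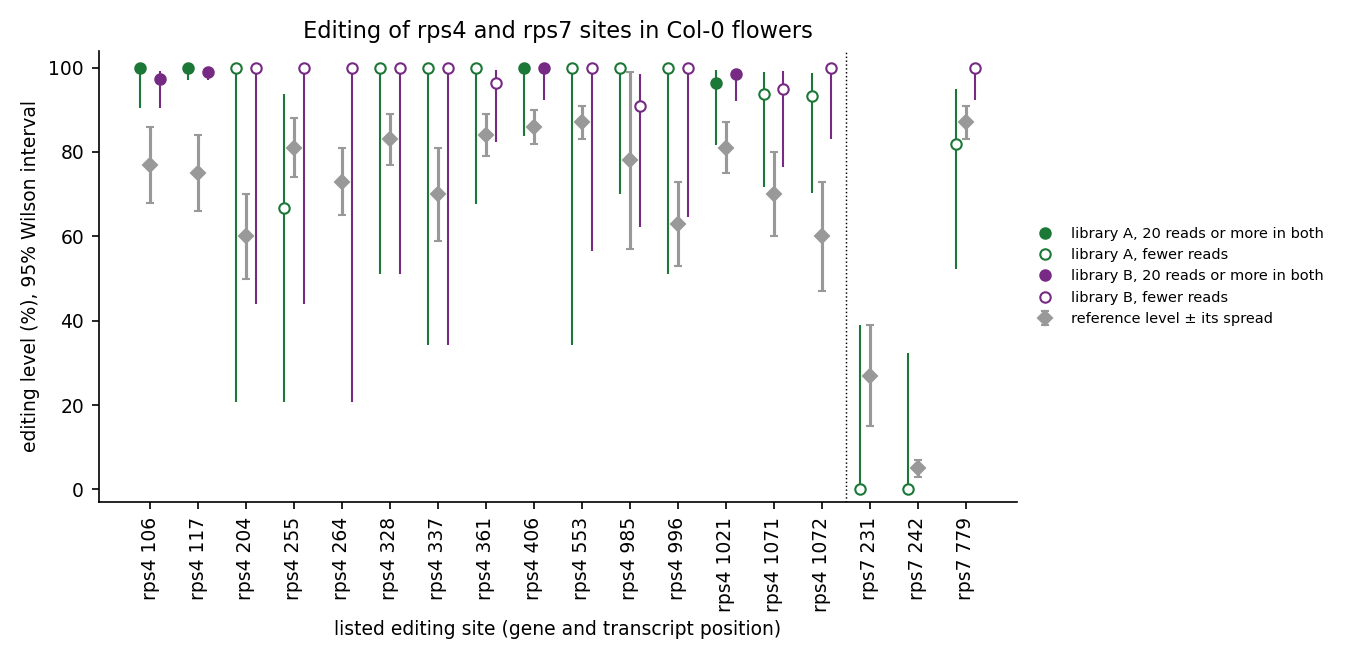
Editing level in percent (y axis, with 95% Wilson intervals) at 15 rps4 and 3 rps7 sites (x axis) in Col-0 RNA-seq libraries A and B, beside the reference level and its spread (grey). Filled points mark sites read at least 20 times in each library, which are 4 rps4 sites between 96.3% and 100%, and open points those with fewer.

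None of the 3 rps7 sites had 20 reads in both libraries, so no rps7 level was computed. At 779, the RefSeq-annotated site in the coding sequence (S111L), 9 of 11 reads were edited in A, 81.8% (Wilson 95% interval 52.3 to 94.9), and 46 of 46 in B, 100% (92.3 to 100), against a reference of 87%. The libraries differed at p = 0.0345 by Fisher's exact test, which did not pass after adjustment (adjusted p = 1.0 at a minimum of 10 reads). The depth of A does not separate the site from the reference.

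The other rps7 sites, 231 and 242, lie 217 and 206 bases before the start codon, in the 5′ UTR, and are not annotated as edited. They had 0 of 6 and 0 of 8 edited reads in A and no reads in B. A count of 0 allows levels of up to 50% and 37.5%, and the references of 27% and 5% fall within these limits. Both lie in an annotated repeat (MT 79223 to 79370), whose other copy is at MT 233646 to 233789 in nad1. The longest run of identical bases between the copies is 52, and neither site falls in it.

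At the 4 rps4 sites, no difference between libraries A and B passed Fisher's exact test (0 of 4, and 0 at an unadjusted p under 0.05), where 1 of the 226 sites of the series did (0.442%) and 4 did unadjusted. Depth decided which sites were tested. The median reads per listed site were 8 in A and 11 in B for rps4, and 8 and 0 for rps7, beside 24 and 43 over all 434 sites. Depth was uneven along rps4. The sites 106 and 117, only 11 bases apart, differed 3.56-fold in reads in A and 4.96-fold in B, ranking 3rd and 4th of 54 site pairs at most 15 bases apart, whose median ratios were 1.18 and 1.24.

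**Figure D5:**
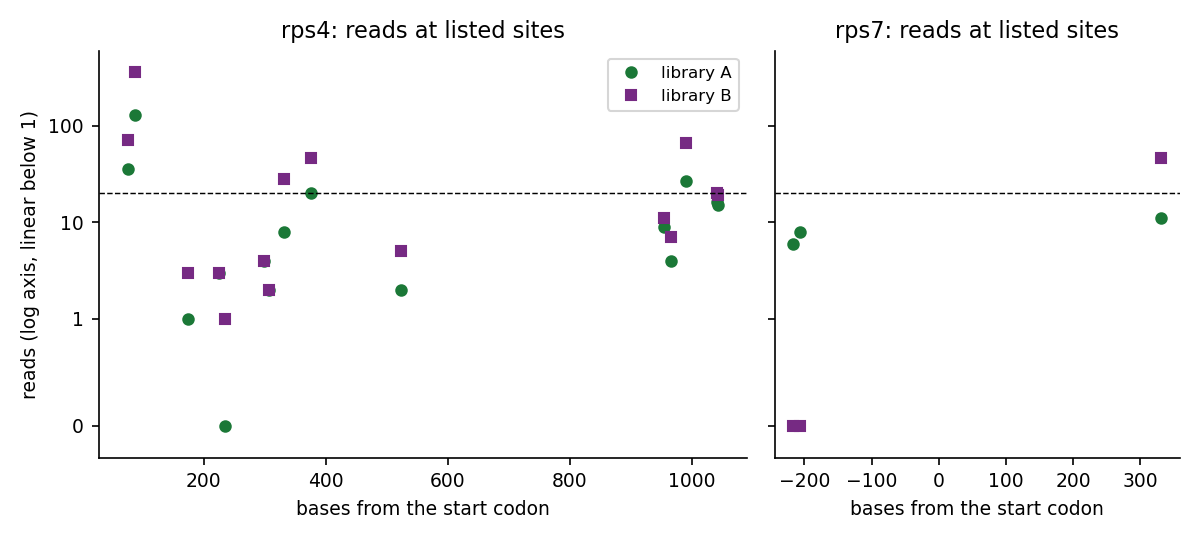
Reads at each listed site (y axis, log scale that is linear below 1) against distance in bases from the first base of the start codon (x axis) for rps4 and rps7 in RNA-seq libraries A and B, with a dashed line at 20 reads. rps4 depth peaks at site 117 (357 reads in B) and most other sites lie below the line.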

How the data were processed

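Groups and library letters came from the sample titles. FastQC, cutadapt 1.9.1, Bowtie 1.1.2 and, for Ribo-seq, featureCounts 1.5.0-p2 were used per the submitters' processing notes, while no source used here states the scaling, build, strand handling or editing caller. Deposited Ribo-seq values are a score, a normalized read count rounded by the authors, so no count model was applied. Deposited editing tables give counts of reads per base and an observed and a reference fraction, per the file headers.

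log2(value + 1) of all 33 genes was fitted with limma 3.58.1 (R 4.3.3), 1 mean per genotype over 6 libraries. Two-sided p-values were adjusted within each contrast by Benjamini-Hochberg, with a threshold of 0.05. limma returned an infinite prior, giving 99 degrees of freedom. The fit was tested on simulated data in which every gene had the same spread. That test cannot show how the calls hold where the spread differs between genes. Editing was T over T plus C, with at least 20 reads in both libraries and Wilson 95% intervals. Ribo-seq depth is unknown. Fisher's exact tests were adjusted over 226 sites. The limit at a count of 0 is 3 reads of the total. Coordinates, counted from 1, codons and annotated edits came from RefSeq's TAIR10.1. Python 3.11.15, pandas 2.3.3, scipy 1.17.1 and statsmodels 0.14.6 were used.

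The members, lists and tests were chosen with earlier results of these data known. The text names rps4, rps7, all their sites, the 5 comparison genes and the 3 nearest profiles of each member. nad2 was named for its position and its values. Sequences are those of sites below 90% in a library or above the reference, and the kept sites. Whether A and B are separate plants is not in the labels, and the p-values then reflect only the spread of these libraries, which may be technical. Alternatives changed the pseudocount, scaling, filter, variance, libraries and read minimum.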

Additional observations from a re-analysis of the deposited data

How the results depend on the processing

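Scaling to equal totals moved rps4 past the threshold in mtl1 (log2 fold change 0.59, or 0.54 without nad4 and nad7 in the totals) and in mtsf1 (0.54 and 0.48), and rps7 between mtl1 and mtsf1 (-0.62 and -0.61), and gave 13 called genes between the mutants against 8. With each gene's own variance 1 gene was called in mtl1 and 4 in mtsf1, and rps7 in mtsf1 stayed at 0.64 without passing. Leaving out each library in turn gave rps7 in mtsf1 0.48 to 0.79, past the threshold in 2 of the 4 cases where the library left out belonged to the contrast. Without rps3 and rpl16 in the median, rps4 minus the median became -0.51 in mtl1 against Col-0 and 0.28 in mtl1 against mtsf1, and rps7 -0.74 and -0.38. Per kb, an alternative chosen after seeing the data, the change in mtsf1 was -1.23 for rps4 and the gap between the mutants 1.79 for rps4 and 1.13 for rps7. With 1 library left out, the change of rps4 minus the median was 0.29 to 0.74 in mtl1 and -1.02 to -0.57 in mtsf1, and that of rps7 0.23 to 0.33 and -0.67 to -0.05. The filter at a mean of 1000 removed rps7 and gave it no value. The cause was not tested beyond these constructions.

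The mean rps4 editing level was 97.4% with a minimum of 1 read, 97.7% with 10, and 99.4% with 50 or 100 (1 site), and 97.7% to 99.1% when 1 library was left out. The rps7 level was 90.9% with 1 or 10 reads (1 site) and 100% without library A. The sites of both genes above the reference numbered 5 among the 14 rps4 and 1 rps7 sites kept with 1 read (14.9% of all kept sites), 5 among 6 rps4 and 1 rps7 sites with 10 reads (21.3%), and 1 of 1 rps4 site with 50 (26.9%) or 100 reads (33.7%). They numbered 6 among 6 rps4 and 1 rps7 sites without library A (32.6%) and 3 of 4 rps4 sites without library B (23.8%).

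Libraries of the same letter did not deviate together across genes (r = 0.0656, 0.00394 and -0.136 for the 3 genotype pairs), and the main fit did not pair them. These correlations cannot show whether libraries of the same letter were prepared together. With the letter as a replicate block, 10, 16 and 8 genes were called against 11, 16 and 8, with rps7 in mtsf1 at 0.64 and rps4 in mtl1 at 0.49, and no call of rps4 or rps7 changed. With the letters of mtl1 crossed in the block, chosen after seeing the data, 12, 18 and 11 were called. Read depth limits the rps7 sites and 11 rps4 sites.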
